A study of Homo sapiens with 45 samples.

Results

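The mitochondrial ribosomal protein genes are the nuclear genes whose symbols start with MRPL or MRPS followed by a number, taken from the gene counts with pseudogenes left out. They number 77 of the 29159 genes counted, 49 named for the large subunit (MRPL) and 28 for the small subunit (MRPS). They were followed in 3 established neuroblastoma cell lines, all of the adrenergic (ADRN) type: SK-N-BE(2)C, which is MYCN amplified with loss of 1p; IMR-32, which is MYCN and MEIS1 amplified with loss of 1p; and SH-SY5Y, which carries an ALK mutation and a gain of 17q. Each line was sampled as untreated control, after 24 h of palbociclib (PB, which blocks the cell cycle kinases CDK4 and CDK6, used at 1 µM) and after longer PB, meaning 7 d for SK-N-BE(2)C but 5 d for the other lines. There were 5 biological replicates in each of 9 groups, or 45 libraries, and the study describes replicates as cells of different passage set up as separate experiments. The controls belong to the 24 h time, so longer PB and longer time in culture cannot be told apart here, nor can 7 d against 5 d be told apart from line.

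The mitochondrial ribosome translates the few messages that mitochondrial DNA encodes, all of them core subunits of the respiratory chain and ATP synthase. Its rRNAs come from mitochondrial DNA, but its proteins are encoded in the nucleus, made in the cytosol and imported. Some of them descend from bacterial ribosomal proteins, and others were added in the mitochondrial lineage. The large subunit joins amino acids and holds the exit tunnel, and the small subunit reads the message.

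Libraries held 13459219 to 25441812 counts over genes, of which 54891 to 120711 fell on the members. Values per library are given as CPM, the gene's count scaled to the library's total. Log2 fold changes come from edgeR with TMM scaling, each ± its SE, with p adjusted by Benjamini-Hochberg over all genes tested in a line. A gene was called when its adjusted p was under 0.05 and its log2 fold change was above 0.5 or below -0.5. The 6 proliferation markers looked at (MKI67, TOP2A, CCNA2, MCM2, E2F1 and CCNE2) were all called lower at 24 h in each line, with median log2 fold changes of -3.17, -3.08 and -4.06. All 10 adrenergic markers passed the filter on low counts, and after longer PB 2 of them were called higher and 1 lower in each line. Of the tested mesenchymal markers 5 of 6, 5 of 6 and 6 of 7 were called lower, and FN1 was called higher in SK-N-BE(2)C. Over all genes tested, 24.5, 16.6 and 18.6% were called higher after longer PB in the 3 lines, and 22.3, 15.5 and 17.3% lower. Replicate 2 of the IMR-32 libraries at 24 h stood apart from its group: members took 0.441% of its counts against 0.348 to 0.402% in the other 4. The rule for far libraries given further on did not flag this sum. Replicate 5 held the 0.402%, and it was also the highest of the IMR-32 controls, at 0.412% against 0.369 to 0.388%. Its mesenchymal markers summed to 1221 CPM in controls, against 654 to 728 in the other 4.

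Of the 77 members, 76 passed the filter in every line. The exception was MRPS24 (chr7:43906157-43909492 on GRCh37), at 0.0468, 0, 0, 0 and 0 CPM in the 5 SK-N-BE(2)C controls. Of the 667 bases of its canonical transcript, 606 lie in exons of a readthrough gene on the same strand, and the part of this overlap in its low value was not tested.

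After longer PB, between 17 and 41 of the tested members were called lower in a line, the most in SK-N-BE(2)C. At 7 d in SK-N-BE(2)C, 41 of the 76 tested members were called lower, or 53.9%, where 22.3% of all tested genes were called lower. At 5 d in IMR-32, 17 of 76 were lower, or 22.4% beside a background of 15.5%, and in SH-SY5Y 21 of 76, or 27.6% beside 17.3%. The median log2 fold change over the members was -0.54, -0.29 and -0.23 in the 3 lines, where the median over all genes was 0.01, 0.00 and 0.01. In this bulk RNA, a loss of cells rich in these transcripts and a lower level in each cell cannot be told apart.

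A single member was called higher after longer PB, MRPS25 in IMR-32, where 16.6% of all genes were called higher. With edgeR, 0 of 76 were called higher in SK-N-BE(2)C at 7 d, where 24.5% of all genes were, and DESeq2 also called 0; 6 members had a positive change at an unadjusted p under 0.05. In SH-SY5Y at 5 d edgeR and DESeq2 both called 0 of 76 higher against a background of 18.6%, with 5 at an unadjusted p under 0.05.

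The summed share of the library taken by the 77 members was also lower after longer PB in each line. In SK-N-BE(2)C it was 0.476% ± 0.0062 (SD, n = 5) in the controls, 0.459% ± 0.0087 at 24 h and 0.335% ± 0.0187 at 7 d. In IMR-32 it was 0.383% ± 0.0182, 0.380% ± 0.0403 and 0.322% ± 0.0092, and in SH-SY5Y 0.406% ± 0.0158, 0.392% ± 0.0162 and 0.350% ± 0.0303. The 5 libraries at 7 d in SK-N-BE(2)C (0.316 to 0.361%) and those at 5 d in IMR-32 (0.313 to 0.336%) and SH-SY5Y (0.325 to 0.390%) all sat below the lowest control of their line (0.467, 0.369 and 0.393%). The library at 0.441% in IMR-32 at 24 h sat above all its controls.

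**Figure D1:**
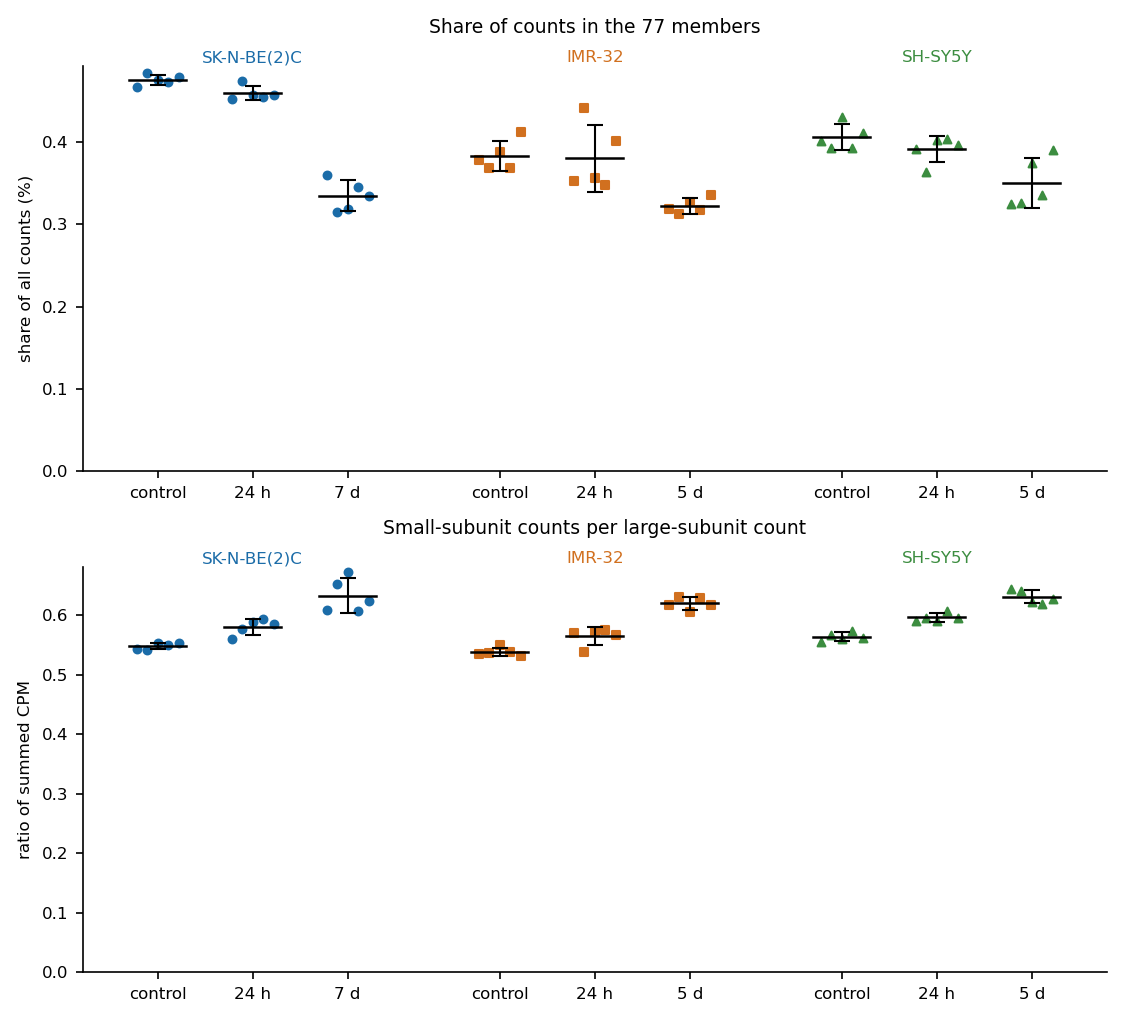
Share of each library's counts that fell on the 77 mitochondrial ribosomal protein genes, in percent (top), and summed CPM of small-subunit members divided by that of large-subunit members (bottom), for 5 libraries in each of 9 groups. Points are libraries, lines are means and bars are SD; the share is lowest and the ratio is highest after longer PB in each line.

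Calls were counted for each subunit beside the background of all genes (22.3, 15.5 and 17.3% lower). Of the 49 large-subunit members, 28, 14 and 17 were called lower after longer PB in the 3 lines, in the order used above, or 57.1, 28.6 and 34.7%, with medians of -0.63, -0.30 and -0.25. Of the 27 tested small-subunit members, 13, 3 and 4 were called lower, or 48.1, 11.1 and 14.8%, with medians of -0.46, -0.25 and -0.21. The share of small-subunit members was below the background in IMR-32 and SH-SY5Y. These are descriptions, and the difference between the subunits was not tested. The symbols do not follow the structure throughout: MRPS18A and MRPS30 sit in the large subunit, and MRPS36 belongs to the oxoglutarate dehydrogenase complex. With the first pair moved, 29, 14 and 17 of 51 large-subunit and 12, 3 and 4 of 25 small-subunit members were lower.

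A ratio within each library compares the subunits without a scaling factor. Counts on small-subunit members per count on large-subunit members were 0.548 ± 0.0054 (SD, n = 5) in SK-N-BE(2)C controls, 0.580 ± 0.0133 at 24 h and 0.633 ± 0.0288 at 7 d. In IMR-32 the ratio was 0.538 ± 0.0070, 0.564 ± 0.0151 and 0.619 ± 0.0102, and in SH-SY5Y 0.563 ± 0.0075, 0.596 ± 0.0069 and 0.631 ± 0.0112. At 24 h the lowest library was above the highest control in SK-N-BE(2)C (0.559 against 0.553) and SH-SY5Y (0.591 against 0.574), while IMR-32 overlapped (0.538 against 0.550) through replicate 2 alone, with its other 4 libraries at 0.567 to 0.574. Each IMR-32 library at 24 h was above the control of its own number, replicate 2 by the least (0.538 against 0.536). After longer PB the libraries of each line lay above all its controls (at least 0.606, 0.605 and 0.619). The ratio is of summed counts, so abundant members weigh most, and it was not tested. It follows the symbols, with MRPS18A and MRPS30 counted in the small subunit, and does not show that either subunit was unchanged.

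Members were also split by descent. Of 45 tested members with a bacterial counterpart, 24, 11 and 13 were called lower in the 3 lines, or 53.3, 24.4 and 28.9%, with medians of -0.51, -0.34 and -0.25. Of the 31 found in mitochondria only, 17, 6 and 8 were lower, or 54.8, 19.4 and 25.8%, with medians of -0.54, -0.19 and -0.20. The difference was not tested.

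Ranked by how consistently they changed, 12 members were called lower after longer PB in all 3 lines, which is 15.8% of the 76, where 6.5% of the 12556 genes tested in every line were. They are, in order of the smallest of their 3 changes, MRPL11, MRPL23, MRPL22, MRPL39, MRPL58, MRPS27, MRPL51, MRPS15, MRPL48, MRPL37, MRPL3 and MRPS10, so 9 of the large and 3 of the small subunit. A further 11 were lower in 2 lines, 21 in 1 line and 32 in none. The sign was more uniform than the calls: 61 of 76 had a negative change in all 3 lines (80.3%, against 31.8% of all genes), 3 a positive one (MRPS25, MRPS21 and MRPS14) and 12 mixed signs. Across the 76 members, changes in SK-N-BE(2)C correlated with those in IMR-32 at r = 0.77 and SH-SY5Y at r = 0.80, and those in IMR-32 with SH-SY5Y at r = 0.68. These are correlations across genes, which are not independent replicates, between lines that share no library.

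**Figure D2:**
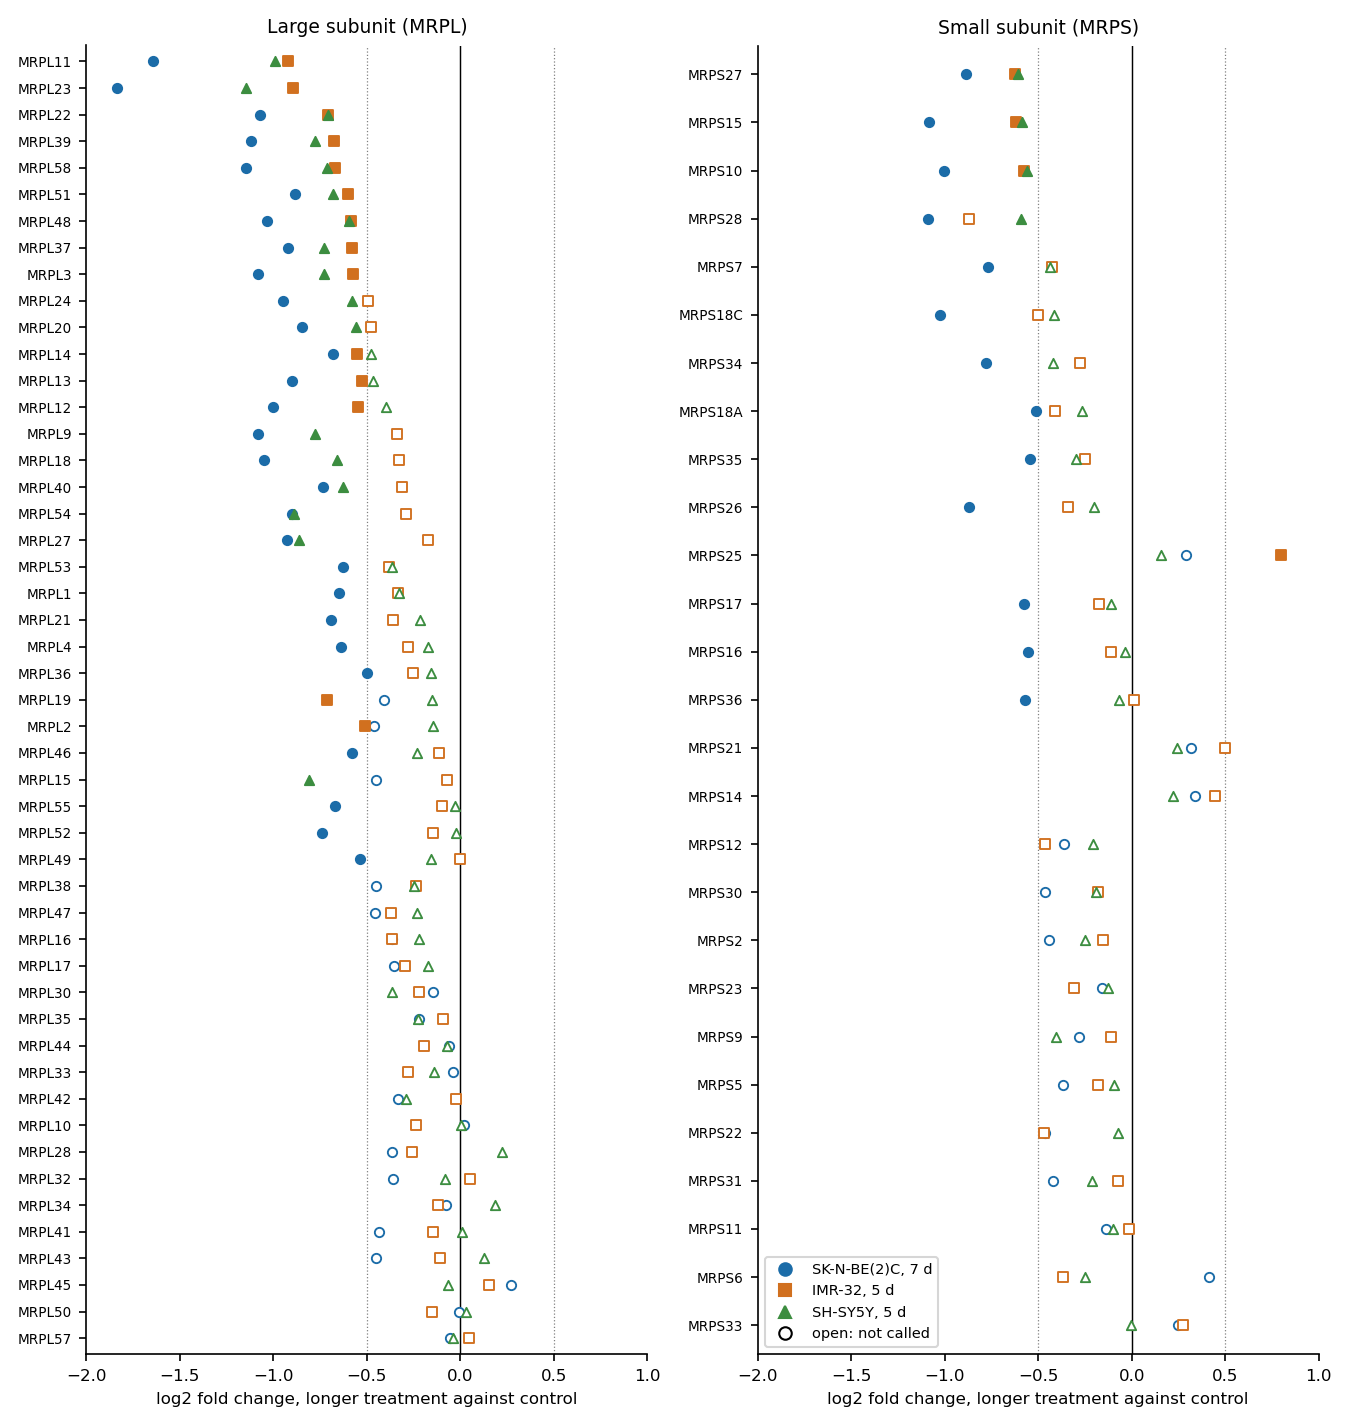
Log2 fold change after longer PB against control for each of the 76 tested members (rows), large subunit at left and small subunit at right, in order of consistency over the lines. Symbols mark the line, filled where the change was called, and dotted lines mark 0.5 and -0.5; most symbols lie left of 0, and those of SK-N-BE(2)C lie farthest left for most of the upper rows.

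MRPL11 led the ranking. It encodes the L11 protein of the stalk base, where translation factors bind (chr11:66202546-66234209, minus strand, GRCh37). In SK-N-BE(2)C it stood at 84.3, 87.7, 77.4, 75.1 and 79.5 CPM in the 5 controls, 52.8, 50.4, 46.1, 45.6 and 47.1 at 24 h and 34.03, 23.4, 23.8, 27.7 and 24.5 at 7 d. The 3 groups did not overlap, with 24 h between the others.

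In IMR-32, MRPL11 stood at 52.8, 55.1, 56.1, 52.5 and 61.7 CPM in controls, 42.2, 57.5, 43.7, 41.9 and 42.3 at 24 h and 31.2, 26.6, 29.9, 31.02 and 29.1 at 5 d. The second 24 h library, the one that stood apart, lay within the controls, and the other 4 lay below them. In SH-SY5Y it stood at 42.9, 41.3, 49.2, 43.1 and 45.8 CPM, 28.2, 27.6, 30.9, 29.6 and 31.05 and 20.4, 20.2, 25.7, 21.5 and 29.5, with both treated groups below the controls and overlapping each other. The log2 fold changes after longer PB were -1.64 ± 0.10 (adjusted p = 5.93e-10), -0.92 ± 0.10 (adjusted p = 5.46e-06) and -0.99 ± 0.10 (adjusted p = 9.32e-08) by edgeR.

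MRPL23 came second and had the largest fall of any member in SK-N-BE(2)C and SH-SY5Y. Its protein is the L23 of the large subunit, at the mouth of the exit tunnel (chr11:1968508-2005752, plus strand). SK-N-BE(2)C controls were tight at 41.1, 40.9, 40.8, 40.9 and 42.4 CPM, the 24 h libraries were at 40.96, 36.9, 33.4, 38.6 and 35.5, and those at 7 d at 18.1, 7.77, 7.44, 14.1 and 12.2. The 7 d libraries lay below all others, -1.65 ± 0.19 (adjusted p = 2.45e-06) from 24 h by edgeR, while controls and 24 h overlapped.

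IMR-32 controls held 50.4, 48.1, 43.8, 46.6 and 53.5 CPM of MRPL23, 24 h libraries 38.8, 59.1, 38.6, 37.1 and 47.7 and 5 d libraries 28.3, 26.1, 25.6, 23.3 and 27.8. SH-SY5Y held 51.5, 57.2, 66.8, 64.2 and 59.1, then 42.4, 41.6, 48.8, 47.9 and 44.9, then 19.4, 22.4, 31.9, 33.8 and 33.9. In both lines the 5 d libraries lay below all others. Changes after longer PB were -1.84 ± 0.19 (adjusted p = 3.20e-07), -0.90 ± 0.13 (adjusted p = 4.66e-05) and -1.15 ± 0.14 (adjusted p = 1.57e-06) by edgeR.

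**Figure D3:**
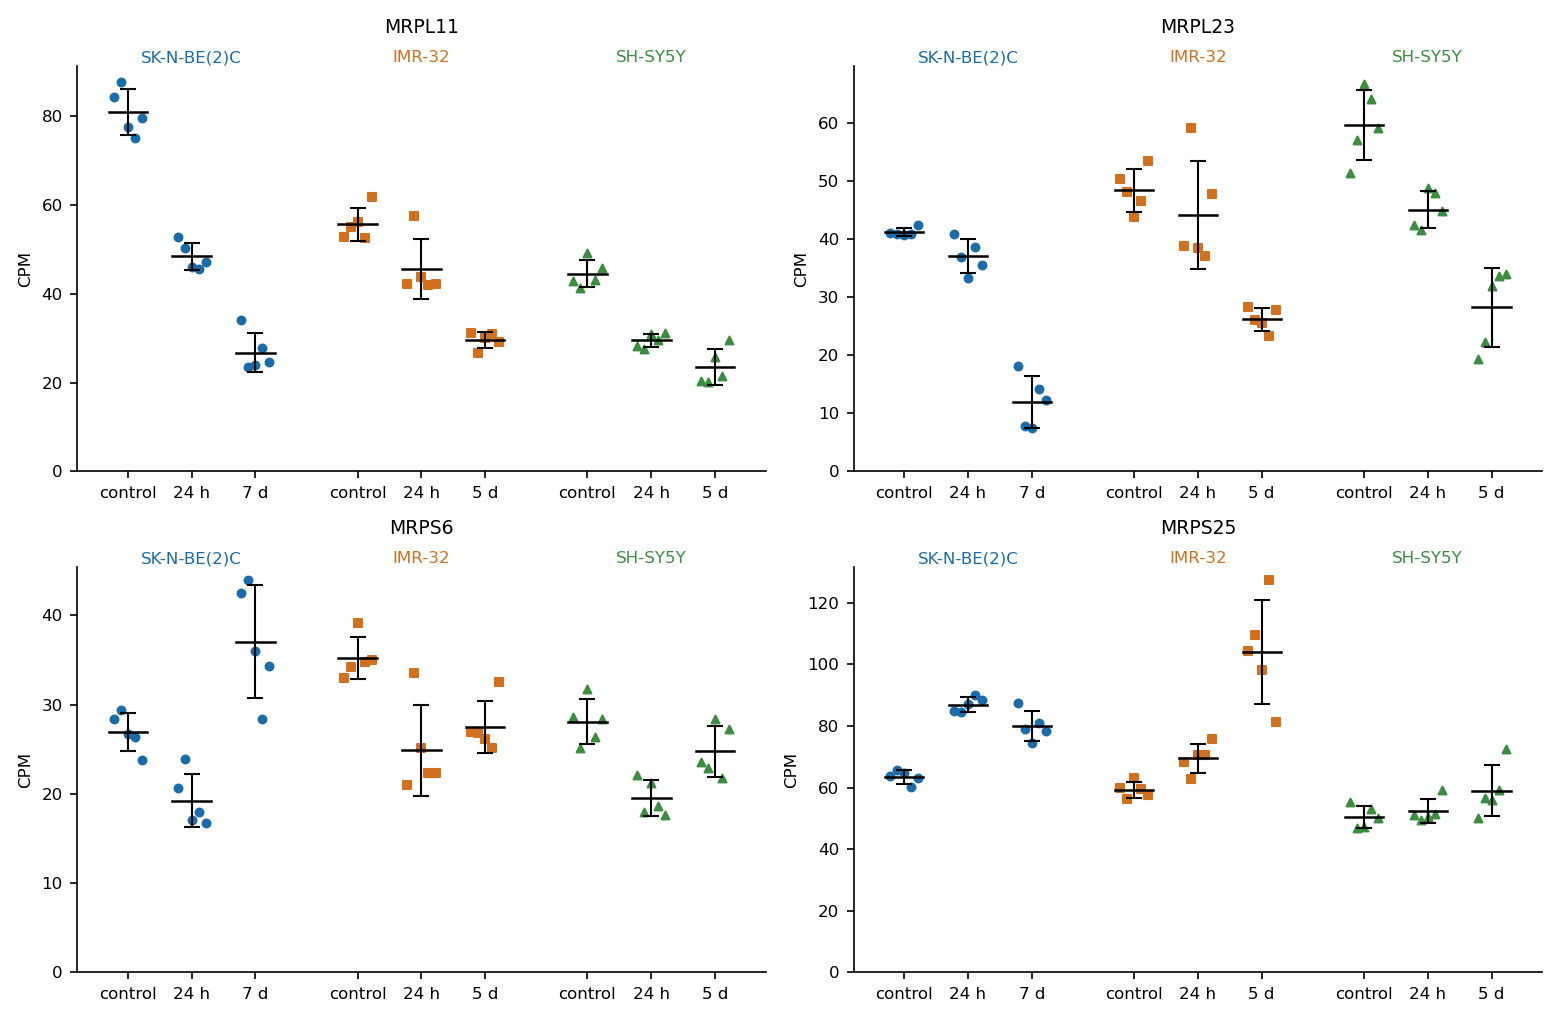
CPM of MRPL11, MRPL23, MRPS6 and MRPS25 in each library, by line and treatment; points are the 5 libraries of a group, lines are means and bars are SD. MRPL11 and MRPL23 are lowest after longer PB in each line, the mean of MRPS6 is lower at 24 h than in controls, and MRPS25 is highest in IMR-32 at 5 d.

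The next 3 members of the ranking are also of the large subunit. MRPL22, another protein of the exit tunnel, fell from 39.98, 35.8, 33.6, 32.99 and 33.3 CPM to 24.4, 13.9, 13.3, 18.1 and 16.5 at 7 d in SK-N-BE(2)C. Its libraries ranged over 25.1 to 29.7 in IMR-32 controls against 16.2 to 17.3 at 5 d, and over 20.2 to 26.3 against 12.8 to 16.9 in SH-SY5Y. No library after longer PB reached a control, and the changes were -1.07 ± 0.14 (adjusted p = 3.70e-06), -0.71 ± 0.12 (adjusted p = 0.000168) and -0.71 ± 0.10 (adjusted p = 8.83e-06) by edgeR.

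MRPL39, a protein that bacterial ribosomes lack, fell from 28.5, 27.2, 29.4, 26.7 and 23.6 CPM to 17.05, 10.2, 10.6, 15.3 and 11.2 in SK-N-BE(2)C. For IMR-32 it was at 19.6, 20.6, 20.8, 21.8 and 28.8 in controls, 14.3, 15.5, 12.8, 13.6 and 16.7 at 24 h and 13.5, 12.8, 14.3, 14.2 and 15.5 at 5 d, with both treated groups below the controls and overlapping each other. In SH-SY5Y it ranged over 22.1 to 23.8 in controls and 10.5 to 16.9 at 5 d. The changes after longer PB were -1.12 ± 0.13 (adjusted p = 9.16e-07), -0.68 ± 0.12 (adjusted p = 0.000255) and -0.78 ± 0.11 (adjusted p = 4.21e-06) by edgeR. MRPL58 encodes a peptidyl-tRNA hydrolase built into the large subunit and went from 31.5 ± 1.2 CPM (SD, n = 5) to 14.7 ± 3.02, from 28.6 ± 2.23 to 18.1 ± 1.89 and from 36.8 ± 0.82 to 23.5 ± 3.75 in the 3 lines. Its changes were -1.15 ± 0.12 (adjusted p = 2.13e-07), -0.67 ± 0.11 (adjusted p = 0.000216) and -0.71 ± 0.09 (adjusted p = 2.48e-06) by edgeR.

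MRPS27 is the first small-subunit member of the ranking, an RNA-binding protein that bacteria lack, and stood at 114 to 126 CPM in SK-N-BE(2)C controls, 121 to 129 at 24 h and 63.2 to 69.6 at 7 d. In IMR-32 it went from 82.9 ± 7.08 CPM (SD, n = 5) to 54.2 ± 7.7 at 5 d and in SH-SY5Y from 99.1 ± 7.24 to 68.1 ± 10.6. Its changes at 24 h were 0.04, 0.07 and -0.06 (adjusted p of 0.46, 0.645 and 0.61 by edgeR), and after longer PB -0.89 ± 0.05 (adjusted p = 1.44e-10), -0.63 ± 0.10 (adjusted p = 0.000151) and -0.61 ± 0.09 (adjusted p = 1.80e-05). MRPS15, which binds the rRNA of the small subunit, went from 42.2 ± 3.6 to 20.6 ± 3.54, 61.5 ± 3.92 to 40.4 ± 2.05 and 41.3 ± 2.76 to 28.8 ± 3.44 CPM. Its changes were -1.08 ± 0.11 (adjusted p = 1.64e-07), -0.62 ± 0.10 (adjusted p = 0.000169) and -0.59 ± 0.08 (adjusted p = 3.86e-06).

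MRPL51, MRPL48 and MRPL37 encode large-subunit proteins found in mitochondria only. MRPL51 was one of the most abundant of the 12, at 105 ± 4.83, 113 ± 17.2 and 114 ± 12.7 CPM in controls (SD, n = 5) and 58.6 ± 6.01, 75.3 ± 4.47 and 74.2 ± 13.8 after longer PB. It changed by -0.89 ± 0.07 (adjusted p = 8.49e-09), -0.60 ± 0.13 (adjusted p = 0.00174) and -0.68 ± 0.11 (adjusted p = 4.70e-05) by edgeR. MRPL48 averaged 66.7 ± 2.21 CPM in SK-N-BE(2)C controls and 33.6 ± 4.69 at 7 d, and went from 29.1 ± 2.38 to 19.5 ± 1.43 in IMR-32 and 27.5 ± 1.8 to 19.1 ± 3.5 in SH-SY5Y, with changes of -1.04 ± 0.08 (adjusted p = 1.14e-08), -0.59 ± 0.11 (adjusted p = 0.000344) and -0.60 ± 0.11 (adjusted p = 9.74e-05). MRPL37 went from 84.9 ± 1.89 to 46.2 ± 7.51, 143 ± 5.06 to 96.04 ± 4.69 and 78.7 ± 2.24 to 49.9 ± 5.43 CPM, with changes of -0.92 ± 0.09 (adjusted p = 2.08e-07), -0.58 ± 0.08 (adjusted p = 4.35e-05) and -0.73 ± 0.07 (adjusted p = 1.13e-07).

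The last of the 12, MRPL3, near the catalytic centre, and MRPS10, of the small subunit head, changed by -1.08, -0.58 and -0.73, and by -1.004, -0.57 and -0.56. In each of the 12 members and each line, no library after longer PB reached its controls, but they were chosen by this same comparison. Of all 77 members, 54, 37 and 28 lay wholly below their controls in the 3 lines, and 4, 3 and 3 wholly above. This share was not counted over all genes. With the replicate block, MRPS28 was also called lower in all 3 lines, for 13 members. Just outside without the block, MRPS28, MRPL24 and MRPL20 were called lower in SK-N-BE(2)C and SH-SY5Y and missed the call in IMR-32, the first by its p and the others by size, at -0.87 ± 0.37 (adjusted p = 0.0578), -0.50 ± 0.14 (adjusted p = 0.00704) and -0.48 ± 0.13 (adjusted p = 0.00644).

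The 12 lie on 8 chromosomes, 3 of them on chromosome 11, which holds 7 members, whereas of the 8 members on chromosome 2 none was in the 12 and 6 were lower in no line. Their median control level was 50.9 CPM, against 45.7 CPM for the 32 members lower in no line, or 36.9 against 24.3 RPKM (CPM per kilobase of canonical transcript), and their canonical transcripts had a median length of 1492 bases against 1538. Of the 12, 1 shares exon sequence with a gene on the opposite strand (MRPL3), against 9 of the 32. Which strand was counted is unknown here, so for such members the reads of both genes cannot be told apart.

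Promoter sequence was available in RefSeq (GRCh38.p14) for 68 of the 77 members, as 250 bases before to 50 after the start. The 150 bases before the start are shown for 6 of the 12, with MRPL11 as the first of the ranking and the others for the ETS or NRF1 letters they hold, 5′ to 3′ on the gene's strand, with motif letters in capitals (CCGGAAG, the core bound by ETS factors such as GABP, and GCATGCG, the core of NRF1, on either strand, so that CTTCCGG and CGCATGC also count).
MRPL11 (chr11:66438849-66438998, minus strand): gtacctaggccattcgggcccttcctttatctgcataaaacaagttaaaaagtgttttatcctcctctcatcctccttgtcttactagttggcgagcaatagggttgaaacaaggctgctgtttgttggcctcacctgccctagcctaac
MRPL22 (chr5:154940923-154941072, plus strand): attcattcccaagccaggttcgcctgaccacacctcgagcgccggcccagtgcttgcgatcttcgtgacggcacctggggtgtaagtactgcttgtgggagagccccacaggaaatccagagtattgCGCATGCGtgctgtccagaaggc
MRPL51 (chr12:6493263-6493412, minus strand): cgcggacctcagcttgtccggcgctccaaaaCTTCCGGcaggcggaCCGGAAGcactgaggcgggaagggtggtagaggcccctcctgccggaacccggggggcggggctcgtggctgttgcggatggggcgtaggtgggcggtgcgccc
MRPL48 (chr11:73787724-73787873, plus strand): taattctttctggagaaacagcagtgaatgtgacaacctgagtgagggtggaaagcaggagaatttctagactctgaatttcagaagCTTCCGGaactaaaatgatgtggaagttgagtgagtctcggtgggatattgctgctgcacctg
MRPL3 (chr3:131502972-131503121, minus strand): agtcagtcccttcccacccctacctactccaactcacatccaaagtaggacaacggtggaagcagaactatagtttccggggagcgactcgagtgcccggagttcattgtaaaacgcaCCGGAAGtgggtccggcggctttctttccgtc
MRPS10 (chr6:42217862-42218011, minus strand): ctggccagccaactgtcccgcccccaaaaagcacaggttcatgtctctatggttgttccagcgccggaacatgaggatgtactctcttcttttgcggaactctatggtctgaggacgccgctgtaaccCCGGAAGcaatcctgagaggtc
MRPL11, which led the ranking, held none of the motifs searched in its 300 bases, while MRPL51 held the ETS letters on both strands and MRPL22 held overlapping NRF1 letters on both. MRPL58, also of the 12 but not shown, held the ETS letters in its 150 bases too.

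Over the 68 members, 29 promoters (42.6%) held the ETS letters CCGGAAG, against 10.7% of all 27305 promoters in the table and 14.2% of those of protein-coding genes. The letters AAGATGGC of YY1 were in 19 (27.9%), against 3.03 and 3.91%. Those of NRF1 were in 6 (8.82%), against 4.13 and 5.14%, the E-box CACGTG in 6 (8.82%), against 7.43 and 8.88%, and TTTCCCGC of E2F in 1 (1.47%), against 1.66 and 2.18%. The ETS letters were in 5 of 11 promoters of members lower in all 3 lines and in 13 of 30 of members lower in none, the YY1 letters in 4 of 11 and 8 of 30, the NRF1 letters in 2 of 11 and 2 of 30, the E-box in 2 of 11 and 1 of 30 and the E2F letters in 0 of 11 and 1 of 30. The ETS letters were also in 33.8% of promoters of cytosolic ribosomal protein genes and 27.7% of those of respiratory chain subunits, and the YY1 letters in 11.8 and 16.9%. A match is a run of letters and does not show that a factor binds there.

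At 24 h few members were called, in contrast with the cell cycle markers. In SK-N-BE(2)C 2 of 76 were called lower (MRPL11 and MRPS6), where 10.6% of all genes were, in IMR-32 1 (MRPL39), where 10.5% were, and in SH-SY5Y 2 (MRPL11 and MRPS6), where 11% were. The median changes were -0.06, 0.03 and -0.07, where those of all genes were 0.02, 0.06 and 0.04; without replicate 2 at 24 h the IMR-32 median was -0.05. In IMR-32 1 member was called higher (MRPL45) beside a background of 7.87%. None of 76 was called higher in SK-N-BE(2)C or SH-SY5Y by edgeR, beside 10.9 and 10.5% of all genes, nor by DESeq2, and 11 and 8 had positive changes at an unadjusted p under 0.05. At an adjusted p under 0.05 of any size, 20, 7 and 19 members were lower, beside 23, 15.6 and 22.8% of all genes, and 9, 8 and 5 higher, beside 23.7, 17.5 and 26.4%.

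MRPL11 was lower at 24 h, with changes of -0.77 ± 0.09 (adjusted p = 5.81e-06) in SK-N-BE(2)C and -0.60 ± 0.10 (adjusted p = 4.69e-05) in SH-SY5Y, and its change in IMR-32 was -0.24 ± 0.10 (adjusted p = 0.0824) by edgeR. MRPS6, a small-subunit protein, was at 28.4, 29.4, 26.7, 26.4 and 23.8 CPM in SK-N-BE(2)C controls, 20.6, 23.9, 17.1, 18.01 and 16.7 at 24 h and 42.6, 44, 35.98, 28.4 and 34.3 at 7 d. The 7 d libraries were all above the 24 h ones, and 4 of the 5 were above all controls. In SH-SY5Y MRPS6 was at 28.7, 25.2, 31.7, 26.4 and 28.4, 22.1, 17.99, 21.2, 18.7 and 17.6 and 23.6, 22.9, 28.3, 21.8 and 27.3, with the 24 h libraries below the controls and the 5 d libraries overlapping both.

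The changes of MRPS6 at 24 h were -0.51 ± 0.12 (adjusted p = 0.00276) in SK-N-BE(2)C, -0.54 ± 0.09 (adjusted p = 0.000103) in SH-SY5Y and -0.45 ± 0.13 (adjusted p = 0.0125) in IMR-32 by edgeR, and the call in SK-N-BE(2)C sat at the limit of 0.5: leaving out any of 5 libraries (control replicates 1 and 2, 24 h replicates 3, 4 and 5) took it to between -0.47 and -0.49. In SH-SY5Y it went to -0.49 without control replicate 3. At 5 d in IMR-32 the change of MRPS6 was -0.37, not called, and its libraries all lay below the controls. Exons of MRPS6 share 308 bases with genes on the same strand, SLC5A3 among them. MRPL39 in IMR-32 was lower at 24 h, with a change of -0.57 ± 0.12 (adjusted p = 0.00167), which became -0.45 without control replicate 5.

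MRPL45, whose protein anchors the ribosome to the inner membrane, was at 43.4, 50.3, 49.8, 47.7 and 43.4 CPM in IMR-32 controls, 62.2, 80.7, 67.1, 61.4 and 66.02 at 24 h and 51.4, 54.1, 54.6, 53.9 and 48.7 at 5 d. All 24 h libraries were above all controls, by 0.57 ± 0.09 (adjusted p = 0.000112) by edgeR, which became 0.48 without the library that stood apart. At 5 d the change was 0.15 ± 0.09 (adjusted p = 0.153).

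The longer time was also compared with 24 h. In SK-N-BE(2)C 34 of 76 were called lower at 7 d than at 24 h (background 14.4%) and 1, MRPS6, higher (17.5%), by 0.93 ± 0.12 (adjusted p = 9.30e-06). In IMR-32 12 were lower (8.86%) and 1, MRPS25, higher (10.8%), and in SH-SY5Y 9 were lower (6.23%) and 0 higher (10.5%) by edgeR, also 0 by DESeq2, with 2 higher at an unadjusted p under 0.05. Median changes were -0.46, -0.34 and -0.22. Without replicate 2 of the 24 h libraries, 6 instead of 12 members were lower in IMR-32 with a median of -0.26; without replicate 1 at 5 d, 4 instead of 9 were lower in SH-SY5Y. This comparison and that with controls share the treated libraries.

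Proliferation markers took another course over the same interval. In IMR-32 6 of 6 and in SH-SY5Y 5 of 6 markers were called higher at 5 d than at 24 h, with medians of 1.61 and 1.45, while in SK-N-BE(2)C the median was 0.31. Against controls 6, 5 and 6 of the 6 were called lower after longer PB, with medians of -2.99, -1.43 and -2.48. The part of cycling cells in the members' levels was not tested.

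After longer PB 32 of 76 members were called lower in no line, and 1 of them was called higher. MRPS25, a small-subunit protein found in mitochondria only, was at 59.7, 56.3, 63.1, 59.4 and 57.6 CPM in IMR-32 controls, 68.2, 62.7, 70.5, 70.5 and 75.7 at 24 h and 104, 109, 98.2, 127 and 81.2 at 5 d. All 5 d libraries were above all others, with a wide range, and the change was 0.80 ± 0.09 (adjusted p = 5.69e-06) by edgeR. In SK-N-BE(2)C it was at 63.8, 65.8, 64.6, 60.03 and 63.1 in controls, 84.7, 84.6, 87.04, 89.9 and 88.5 at 24 h and 87.6, 79.1, 74.4, 80.99 and 78.3 at 7 d, so both treated groups lay above the controls, by 0.42 and 0.29, under the limit of 0.5. In SH-SY5Y the change at 5 d was 0.16 ± 0.09 (adjusted p = 0.13). Exons of MRPS25 overlap NR2C2 on the opposite strand over 850 bases and an unnamed gene on its own strand over 1982, and reads of these genes cannot be told apart from its own.

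MRPS21 and MRPS14, small-subunit proteins with bacterial counterparts, had positive changes under the limit after longer PB, of 0.32, 0.50 and 0.24, and of 0.34, 0.44 and 0.22. Each passed an adjusted p of 0.05 by edgeR in all 3 lines, the largest being 0.00606 for MRPS21 and 0.00835 for MRPS14, both in SH-SY5Y. The flattest members after longer PB were MRPL57, MRPS11 and MRPL50, whose largest changes from control in any line at that time were 0.05, 0.14 and 0.15 in size. At 24 h MRPL50 was at 0.42, 0.25 and 0.08. After longer PB MRPL57 changed by -0.05 ± 0.05, 0.05 ± 0.14 and -0.04 ± 0.08. No member was called in opposite directions in 2 lines, or against control at the 2 times of 1 line.

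The size of the response differed between lines for some members. In a fit of all 45 libraries, the change at 7 d in SK-N-BE(2)C differed from that at 5 d in IMR-32 for 12 of 76 members, 11 of them lower in SK-N-BE(2)C, beside 23.9% of all genes called either way. It differed from SH-SY5Y for 14, of which 13 were lower in SK-N-BE(2)C, beside 21.2%. IMR-32 and SH-SY5Y differed for 6, beside 20.8%. Each count is a smaller share of the members than that of all genes, and all genes were not split by direction. Medians of the difference over the members were -0.29 and -0.30 for SK-N-BE(2)C against the other lines, where those over all genes were 0.01 and -0.01. Without replicate 1 in each group, the count against SH-SY5Y was 26 instead of 14 and that against IMR-32 was 18 instead of 12.

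The largest such difference was that of MRPL23, at -0.91 ± 0.23 (adjusted p = 0.00175) against IMR-32 and -0.72 ± 0.23 (adjusted p = 0.0135) against SH-SY5Y by edgeR. MRPS6 went the other way, by 0.81 ± 0.17 (adjusted p = 0.000222) and 0.63 ± 0.17 (adjusted p = 0.00348). MRPL52 was called lower in SK-N-BE(2)C alone (-0.74, -0.15 and -0.02 in the 3 lines), and differed by -0.56 ± 0.15 (adjusted p = 0.00346) and -0.75 ± 0.15 (adjusted p = 0.00016).

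MRPL27 and MRPL9, both with bacterial counterparts, were called lower in SK-N-BE(2)C and SH-SY5Y but not IMR-32. MRPL27 changed by -0.93, -0.17 and -0.86, with a difference of -0.73 ± 0.14 (adjusted p = 5.06e-05) between SK-N-BE(2)C and IMR-32 by edgeR. MRPL9 changed by -1.08, -0.34 and -0.78, with a difference of -0.72 ± 0.11 (adjusted p = 1.03e-06). Exons of MRPL9 overlap genes on the opposite strand over 439 bases. MRPS26 changed by -0.87, -0.34 and -0.20 and differed between SK-N-BE(2)C and SH-SY5Y by -0.70 ± 0.10 (adjusted p = 1.00e-06).

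**Figure D4:**
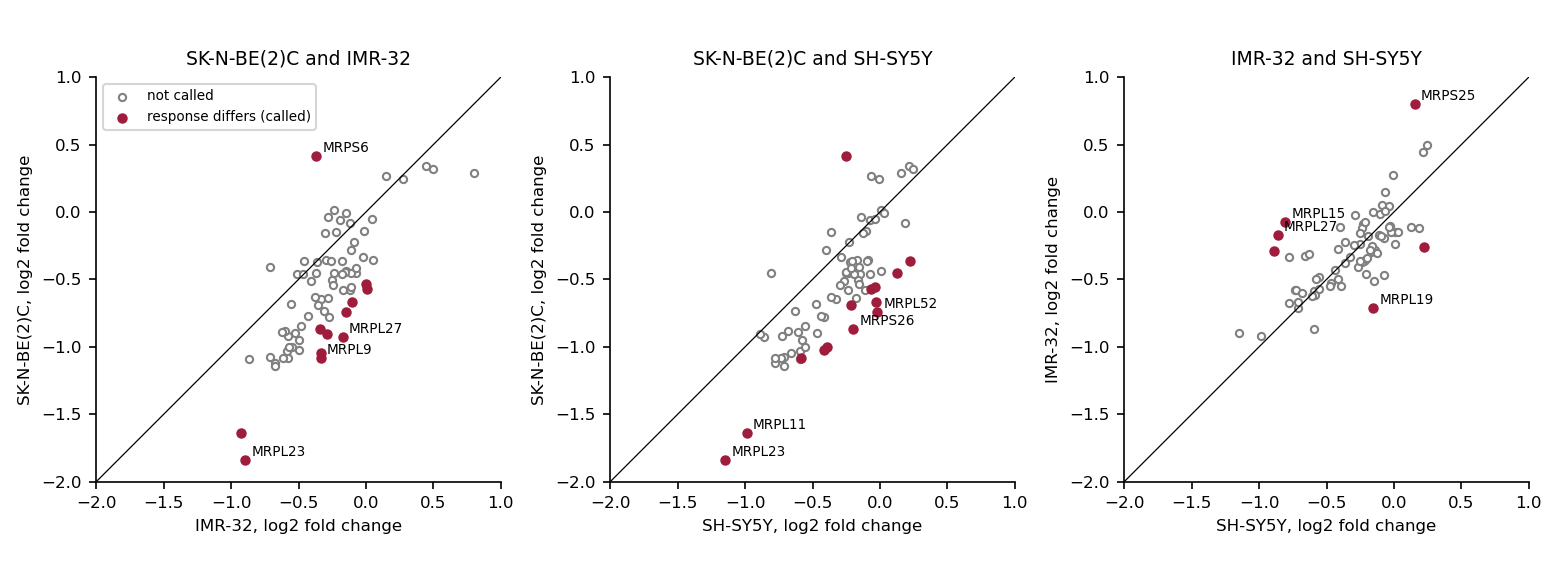
Log2 fold change after longer PB against control for each of 76 members in one line against another; the diagonal marks equal change and red points are members whose response differed by the test in the 45-library fit, the 4 largest named. Most red points lie below the diagonal where SK-N-BE(2)C is on the y axis.

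At 24 h the response of 2 members differed between SK-N-BE(2)C and IMR-32 (4.49% of all genes), MRPL11 by -0.53 ± 0.14 (adjusted p = 0.0156) and MRPL9 by -0.52 ± 0.10 (adjusted p = 0.00126) by edgeR. For SK-N-BE(2)C and SH-SY5Y (2.04% of all genes) and for IMR-32 and SH-SY5Y (3.07%) the edgeR count was 0 of 76, with 7 and 9 members at an unadjusted p under 0.05, and no other tool was run. The count of 2 became 0 with library size alone or without replicate 2, and 1 without replicate 3 or replicate 4.

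Before treatment, most members called different between SK-N-BE(2)C and another line were higher in SK-N-BE(2)C. Against IMR-32 36 of 76 were called different, 31 of them higher in SK-N-BE(2)C (62.1% of all genes called either way). Against SH-SY5Y 41 were, 35 of them higher in SK-N-BE(2)C (57.5%), and between IMR-32 and SH-SY5Y 22 were, 13 of them higher in IMR-32 (54.2%). In each pair a smaller share of the members than of all genes was called, and all genes were not split by direction. Median differences over the members in these pairs were 0.31, 0.44 and 0.12, where those over all genes were 0.01, 0 and 0. MRPL20 was at 81.9 ± 3.1, 22.7 ± 2.81 and 72.6 ± 6.03 CPM (SD, n = 5) in the 3 controls, so low in IMR-32, by 1.87 ± 0.10 (adjusted p = 8.00e-20) for SK-N-BE(2)C against IMR-32 and -1.49 ± 0.10 (adjusted p = 1.53e-16) for IMR-32 against SH-SY5Y.

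MRPS28 and MRPL4 were higher in SK-N-BE(2)C than in IMR-32 by 1.63 and 1.27 on the log2 scale, MRPS28 from low counts (3.89 ± 0.954 against 1.26 ± 0.439 CPM). MRPL48, MRPS2 and MRPL15 were higher in SK-N-BE(2)C than in SH-SY5Y by 1.48, 1.42 and 1.29. MRPL48 was at 66.7 ± 2.21 CPM there, against 29.1 ± 2.38 in IMR-32 and 27.5 ± 1.8 in SH-SY5Y. IMR-32 was below SH-SY5Y in MRPL24, with a difference of -1.13 ± 0.12 (adjusted p = 2.90e-11), and above it in MRPL37, with 1.04 ± 0.08 (adjusted p = 1.22e-14), both by edgeR.

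Levels of different members were compared as RPKM. MRPL12, the stalk protein that contacts elongation factors, was highest in each line, at 214 ± 6.83, 181 ± 14.9 and 184 ± 11.2 RPKM (SD, n = 5), though 701 bases of it are shared with an unnamed gene on its strand. In SK-N-BE(2)C MRPS34 at 213 ± 5.22 did not differ from it beyond their spread, and MRPL41 at 131 ± 4.41 and MRPL4 at 130.3 ± 7.91 followed within their spread. In IMR-32 MRPL51 at 126 ± 19.1 and MRPS7 at 104 ± 5.93 followed MRPL12, and in SH-SY5Y MRPS21 at 135 ± 9.86 and MRPL51 at 127 ± 14.2, the last pair within their spread. Exons of MRPS34, MRPL4 and MRPS7 overlap genes on the opposite strand over 325, 483 and 149 bases. Apart from MRPS24, the lowest were MRPS28, at 4.64 ± 1.14, 1.51 ± 0.524 and 3.29 ± 0.907 RPKM, then MRPL19 in SK-N-BE(2)C (7.16 ± 0.49), MRPS33 in IMR-32 (5.31 ± 0.358) and MRPL42 in SH-SY5Y (6.14 ± 0.217). The listed transcripts of MRPL19, MRPS33 and MRPL42 are long, at 7825, 4210 and 15557 bases, which lowers their RPKM.

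Cytosolic ribosomal protein genes had positive medians at 24 h (0.25, 0.48 and 0.27), with 34 of 84 called higher in IMR-32 and 3 of 82 in SK-N-BE(2)C, beside 7.87 and 10.9% of all genes. In SH-SY5Y edgeR and DESeq2 called 0 higher, beside 10.5%, with 56 of 84 at an unadjusted p under 0.05. After longer PB their medians were 0.11, -0.08 and 0.13, with 3, 2 and 2 called lower. At that time 4 were called higher in SK-N-BE(2)C, 2 in SH-SY5Y and 0 in IMR-32 by edgeR and by DESeq2, where 2 were positive at an unadjusted p under 0.05. From 24 h to 5 d in IMR-32, 56 of 84 were lower with a median of -0.57, beside 8.86% of all genes. Both IMR-32 counts depend on replicate 2 at 24 h, where these genes summed to 106080 CPM against 74199 to 76487 in the other 4 libraries. Without it 2 of 85 were higher at 24 h, with a median of 0.35, and 24 of 85 lower from 24 h to 5 d, with a median of -0.44. Nuclear-encoded subunits of the respiratory chain and ATP synthase, the partners of what the mitochondrial ribosome makes, had 28 of 75, 3 of 76 and 14 of 76 called lower after longer PB, or 37.3, 3.95 and 18.4%, beside 22.3, 15.5 and 17.3% of all genes, with medians of -0.42, -0.18 and -0.30. The complex I subunit NDUFA6 was called lower (-1.31, -0.56 and -1.09) and the ATP synthase subunit ATP5F1E higher (2.07, 1.38 and 0.59) in all 3 lines.

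**Figure D5:**
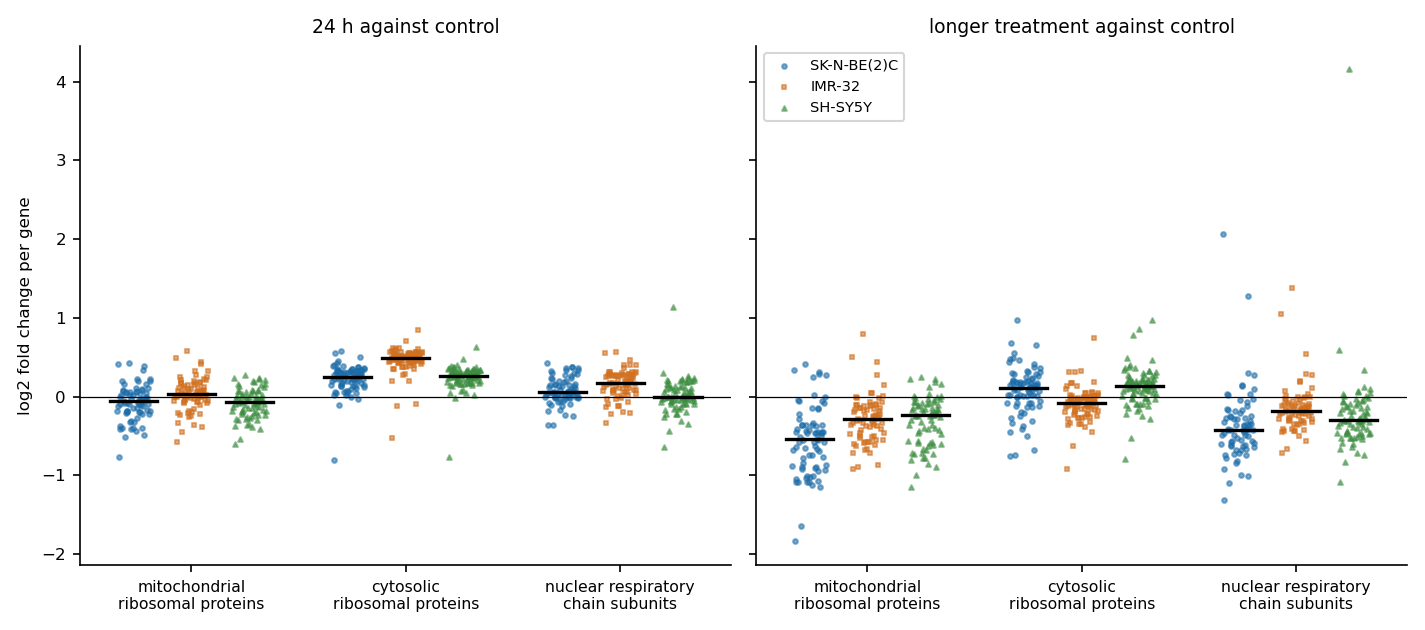
Log2 fold change against control at 24 h (left) and after longer PB (right) for each tested gene of 3 lists, by line; points are genes and black lines are medians. At 24 h the members sit around 0 and most cytosolic ribosomal protein genes above it, in IMR-32 with replicate 2 included, and after longer PB the members and the respiratory chain subunits sit mostly below 0.

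The 5 mitoribosome proteins with other names (DAP3, PTCD3, AURKAIP1, CHCHD1 and GADD45GIP1) had 1 member called lower after longer PB in IMR-32 and 3 in SK-N-BE(2)C, beside 15.5 and 22.3% of all genes, and 0 in SH-SY5Y (17.3%) by edgeR and by DESeq2, with 2 at an unadjusted p under 0.05. The list stood at medians of -0.50, -0.18 and -0.13, with GADD45GIP1 at -0.87, -0.58 and -0.45. Of 25 genes for assembly of the ribosome and modification of its rRNA, 8, 3 and 1 were lower, or 32, 12 and 4%, which is under the background in IMR-32 and SH-SY5Y, and 1 was higher in each line, or 4%, beside 24.5, 16.6 and 18.6% of all genes. The higher ones were YBEY in SK-N-BE(2)C, MTERF4 in IMR-32 and MPV17L2 in SH-SY5Y. Of 18 factors of mitochondrial translation 2 were lower in SH-SY5Y (11.1%) and 5 in SK-N-BE(2)C (27.8%), beside 17.3 and 22.3% of all genes. In IMR-32 edgeR called 0 of 18 lower, beside 15.5% of all genes, with 7 negative at an unadjusted p under 0.05 and 1 called by DESeq2. Transcripts of mitochondrial DNA itself were not analysed here.

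Of 18 genes for mitochondrial DNA transcription, replication and RNA processing 5, 1 and 3 were lower, or 27.8, 5.56 and 16.7%, near or under the background. TFAM, which packages and transcribes mitochondrial DNA, was lower in all 3 lines (-0.93, -0.59 and -0.70), and went from 94.05 ± 5.32 to 50.8 ± 4.29 CPM (SD, n = 5) in SK-N-BE(2)C. Of the regulators of nuclear mitochondrial genes looked at, 5 of 12, 3 of 11 and 6 of 11 tested were lower after longer PB, beside 22.3, 15.5 and 17.3% of all genes, and MYC was higher in SK-N-BE(2)C and PPARGC1A in IMR-32.

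NRF1, a transcription factor of nuclear mitochondrial genes, was lower at 24 h, at -1.36, -0.75 and -1.17 on the log2 scale in the 3 lines, and was at -0.99, -0.64 and -0.93 after longer PB. It went from 25.4 ± 1.15 CPM in SK-N-BE(2)C controls to 10.1 ± 0.966 at 24 h and 13.2 ± 1.05 at 7 d (SD, n = 5). GABPB1, the activating partner of the ETS factor GABPA, changed by -0.75, -0.88 and -0.83 at 24 h and -1.18, -0.88 and -1.16 after longer PB, called lower each time. From 24 h to the longer time the change of NRF1 was 0.38, 0.10 and 0.24, not called in any line. The part of either factor in the members' levels was not tested.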

How the data were processed

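RNA was polyA-selected, made into strand-specific libraries and sequenced in pairs. The authors trimmed reads with Trim Galore (minimum phred score 20), used STAR against hg19 both for alignment and for the gene counts; the deposited counts are not normalized, and the sources used here do not give the strand taken. The submitters' processing notes name Trim Galore 0.6.4, STAR 2.6.1d and DESeq2 1.32.0. The authors' CPM tables and their own DESeq2 fold changes and p-values were not used.

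Counts of the 15 libraries of a line were fitted in R 4.3.3 with edgeR 4.0.16 (TMM, filterByExpr, robust quasi-likelihood F tests, 1 mean per group), with p adjusted over all genes tested. All 45 libraries were fitted together for differences between lines. The SE of a log2 fold change is its size over the root of F. Functions were tested on simulated data. Names, positions and lengths follow the GENCODE annotation given for GRCh37. Libraries of 1 number correlated after group means were removed, with lowest values of 0.129, 0.114 and 0.120 for IMR-32, then 0.249, 0.109 and 0.136 for SH-SY5Y, then 0.243, 0.0966 and 0.0482 for SK-N-BE(2)C (24 h and longer PB against control, then longer PB against 24 h). They so count as paired except in the comparisons with 7 d, where the lowest values were smallest. The printed p-values and SE still come from fits without this pairing, and the replicate block is given as an alternative.

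As replicates are passages of a line, p-values measure the spread between them. Members, gene lists and tests were chosen with earlier results of these data known. Genes are named by rule: members called lower in all lines after longer PB, those called at 24 h, those called higher, the 6 with the largest difference of response, the highest and lowest levels, the largest differences between controls, the 3 flattest, untested members, and up to 3 genes of each other list called alike in all lines or higher in any. MRPL24 and MRPS28 as near misses, GADD45GIP1 and the genes behind counts of 1 were named after their values were seen. Alternatives were other scaling (size factors as in DESeq2, library size alone), no filter, DESeq2 1.42.0, the replicate block, adjusted p alone, other subunit assignments and leaving out each library.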

Additional observations from a re-analysis of the deposited data

Results flagged for a closer look

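Of 117 groups of 5 libraries examined (summed CPM of the members and of each subunit, and the first 10 members of the ranking), 6 held a library far from the other 4, where chance gives about 1 in 20, or 5.85. Members summed to 4745 CPM in replicate 2 of SK-N-BE(2)C at 24 h, against 4529 to 4574 in the others. Large-subunit members summed to 2282 CPM in replicate 2 of SH-SY5Y at 24 h, against 2462 to 2533. MRPL11 was at 57.5 CPM in replicate 2 of IMR-32 at 24 h, against 41.9 to 43.7. MRPL23 was at 42.4 CPM in replicate 5 of the SK-N-BE(2)C controls, against 40.8 to 41.1. MRPL39 was at 28.9 CPM in replicate 5 of the IMR-32 controls, against 19.6 to 21.8, and MRPS15 at 46.0 CPM in replicate 5 of the SH-SY5Y controls, against 39.3 to 40.9.

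Responses that differed between lines by the edgeR test in the fit of all 45 libraries were also set apart. They numbered 2 members for SK-N-BE(2)C against IMR-32 at 24 h, beside 4.49% of all genes. After longer PB they numbered 12 between SK-N-BE(2)C and IMR-32, 14 between SK-N-BE(2)C and SH-SY5Y and 6 between IMR-32 and SH-SY5Y. The shares of all genes there were 23.9, 21.2 and 20.8%. Each count is a smaller share of the members than that of all genes. The difference in log2 fold change after longer PB between SK-N-BE(2)C and IMR-32 was -0.91 for MRPL23, 0.81 for MRPS6, -0.73 for MRPL27 and -0.72 for MRPL9. Between SK-N-BE(2)C and SH-SY5Y it was -0.75 for MRPL52 and -0.70 for MRPS26. At 24 h, SK-N-BE(2)C and IMR-32 differed by -0.53 for MRPL11 and -0.52 for MRPL9.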

How the results depend on the processing

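Leaving out each library in turn gave 39 to 45 members lower in SK-N-BE(2)C, 15 to 22 in IMR-32 and 19 to 24 in SH-SY5Y, with medians from -0.57 to -0.52, -0.33 to -0.25 and -0.29 to -0.22. The number lower in all 3 lines, whose scaling by size factors, fit without a filter and fits without single libraries were added after seeing the data (as was leaving replicate 2 out for the cytosolic genes of IMR-32), stayed between 11 and 14; MRPS10 was lost with library size alone and without IMR-32 control replicate 5, and MRPL20, MRPL24, MRPL13, MRPL14 or MRPS28 joined in others. Of 143 calls on single members, 29 were lost under at least 1 alternative, 16 of them under a scaling, filter, tool or block alternative, and 0 changed sign. The replicate block gave 41, 18 and 21 members lower after longer PB, 2, 1 and 2 at 24 h and 34, 12 and 11 from 24 h to the longer time, and moved no count by over 1.5 times.

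Without the limit on size, adjusted p alone gave 20, 7 and 19 members lower (all genes 23, 15.6 and 22.8%) and 9, 8 and 5 higher (all genes 23.7, 17.5 and 26.4%) at 24 h. After longer PB it gave 63, 38 and 47 lower (all genes 35.8, 25.6 and 32.5%) and 6, 4 and 5 higher (all genes 35.3, 25.5 and 32.9%). From 24 h to the longer time it gave 69, 44 and 39 lower (all genes 30, 17.8 and 21.4%), with 2 higher in SH-SY5Y (all genes 22.2%). With library size alone, 1 instead of 2 members was lower at 24 h in SK-N-BE(2)C, 2 instead of 1 in IMR-32, 2 instead of 1 was higher at 5 d in IMR-32, 5 instead of 9 were lower from 24 h to 5 d in SH-SY5Y, and 0 instead of 2 differed at 24 h between SK-N-BE(2)C and IMR-32; the cause was not tested.

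Leaving out single libraries moved small counts. At 24 h, 1 to 3, 0 to 2 and 1 to 2 members were lower in the 3 lines and 0 to 2 higher in IMR-32, with its median from -0.05 to 0.07. At 5 d in IMR-32, 1 to 2 were higher. From 24 h to the longer time, 32 to 42, 6 to 18 and 4 to 12 were lower, the fewest in IMR-32 without 24 h replicate 2 and in SH-SY5Y without 5 d replicate 1, and 0 to 1 was higher in IMR-32 (0 without 5 d replicate 4); the SK-N-BE(2)C median ran from -0.52 to -0.45. Between lines, where replicates of 1 number were left out of all groups at once, 0 to 2 members differed at 24 h for SK-N-BE(2)C and IMR-32. After longer PB, 9 to 18 differed for that pair and 12 to 26 for SK-N-BE(2)C and SH-SY5Y, the most without replicate 1.

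For longer PB against control, the other subunit assignments moved the subunits' medians by less than 0.05. Depth limits MRPS28 and MRPS24, which had the fewest counts.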
